A study of Mus musculus with 36 samples.

Results

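The AP sites of sperm DNA were compared with those of 5 other tissues of the same mice, by counting where in the genome they lay. An AP site is a place where the base has been lost from the sugar of a DNA strand, and SSiNGLe-AP records the genomic position and strand of each one. The members are the 2 AP site libraries of sperm, replicates 1 and 2, which were chosen by their labels and stand among 12 AP site libraries and 36 samples in the series. All 12 libraries came from male C57BL/6J mice aged 24 months, 2 animals in all, without treatment or genetic change, so no age comparison was made here. The other 10 libraries were 2 each of bone marrow freed of red cells, brain, heart, liver and PBMCs (mononuclear cells of the blood). Sperm were motile spermatozoa that floated up from the epididymal tail. Their DNA was purified with a sperm DNA kit, whereas the DNA of the other 5 tissues was isolated with a general genomic DNA kit, so a difference of tissue and a difference of kit cannot be told apart in any comparison given here.

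AP sites form when the bond between a base and its sugar breaks, either spontaneously, which affects purines (A and G) far more than pyrimidines, or when a DNA glycosylase removes a damaged base at the start of base excision repair. In mature sperm most histones have been replaced by protamines, transcription has stopped, and the capacity to repair DNA is limited. The genes Prm1 and Prm2 encode the protamines, and Tnp1 and Tnp2 the transition proteins that precede them.

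Each listed position was counted once. Sperm replicate 1 held 963258 positions and replicate 2 held 621382, and the 12 AP site libraries ranged from 460719 to 963258. The smaller number of positions in replicate 2 makes its values the less precise of the pair. Results are given as shares of the positions on chromosomes 1 to 19 of GRCm38, or as positions per 1000000 of them (PPM). Such shares describe where AP sites lay and not how many a cell carried. Each library pools many cells, so more lesions in a few cells and a few lesions in many cells cannot be told apart. The label could not be checked, since lesion positions name no cell type, and sperm and the other cells of males carry X and Y in the same ratio to the autosomes. Chromosome X held 1.58% and 1.74% of the sperm positions, against 1.58% to 1.83% in the other libraries, and chromosome Y held 0.111% and 0.124%, against 0.104% to 0.168%.

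The bases at AP positions could be read in 31396 promoter windows of RefSeq (GRCm38.p6) on the autosomes for which a sequence was at hand, each running from 250 bases before to 50 bases after a gene start. Of these windows, 9551 (30.4%) held a sperm position, and the median window held 0. The 2 windows with the most sperm positions are shown here to let the bases under the lesions be seen. They are written 5′ to 3′ on the strand of the gene, and capitals mark nucleotides at which a sperm library had an AP position on either strand.

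Gm33862, chr11:3136826-3137125, plus strand: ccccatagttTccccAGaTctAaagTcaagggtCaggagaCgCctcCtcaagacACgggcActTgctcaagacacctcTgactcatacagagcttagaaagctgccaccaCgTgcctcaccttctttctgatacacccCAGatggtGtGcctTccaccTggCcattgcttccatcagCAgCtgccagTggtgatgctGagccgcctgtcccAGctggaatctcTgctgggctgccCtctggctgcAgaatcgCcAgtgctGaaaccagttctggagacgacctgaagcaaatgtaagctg

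Sp110, chr1:85598761-85599060, minus strand: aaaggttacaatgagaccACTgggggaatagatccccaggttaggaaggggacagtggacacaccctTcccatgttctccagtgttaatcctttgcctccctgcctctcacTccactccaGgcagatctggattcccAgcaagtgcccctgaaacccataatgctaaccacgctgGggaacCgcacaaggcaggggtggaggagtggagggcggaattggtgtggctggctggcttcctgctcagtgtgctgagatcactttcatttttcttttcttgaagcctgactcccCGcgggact

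The window of Gm33862, a predicted gene inside the span of Sfi1, held 43 sperm positions at 38 nucleotides. On the strand shown, 28 nucleotides had a sperm AP position, 13 of them also had one in another tissue, and 14 were purines. The window of Sp110, a nuclear body gene, held 11 sperm positions, of which 9 lay on the strand not shown. The third window by this count, that of A530032D15Rik, held 6. The windows of Gm33862 and Sp110 lie within the densest 10 kb windows of the genome, which are described last.

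Over all promoter windows, sperm AP positions fell mostly on purines, and C or G often stood before them. A purine stood at the AP position for 75.4% of 7281 positions in replicate 1 and 71.1% of 4130 in replicate 2, where the 2 strands together give 50% for all bases. The other 10 libraries ranged from 71.9% to 76.7% with a median of 74.97%, so replicate 2 was below each of them and replicate 1 within their range. C was found at the second base before the AP position in 52.3% and 53.4% of sperm positions, against 26.8% of all bases. A was found there in 3.53% and 4.87%, against 23.2%. Both bases before were C or G and the AP position a purine in 51.5% and 42.0% of sperm positions, against 41.4% to 52.8% in the other tissues and 13.3% of all places.

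The leading tetramers, read from the second base before the AP position to the base after it, were CCAG, at 7.25 times its share of all tetramers, CCAA at 7.16 times, CGAA at 6.79 times and CGAG at 6.37 times. These were also the first 4 in the mean of the other tissues, at 7.57, 7.35, 7.12 and 6.46 times. Over all tetramers the ratios of sperm and of the other tissues had a Pearson correlation of 0.988 and a Spearman correlation of 0.980. That correlation is over tetramers, which share libraries and base composition, and is given as a description. Both sperm libraries were above the other 10 for 3 tetramers (1.17%), CGTA, AGAG and ATTG, and below them for 2 (0.781%), GTAA and ACCT. The commonest of these, CGTA and GTAA, made up 0.347% and 0.342%, and 0.347% and 0.366% of the sperm tetramers, against 0.141% to 0.318% and 0.398% to 0.634% in the other libraries. They were named after their values were seen. G within a CpG was the AP position in 10.3% and 8.47% of sperm positions, against 7.25% to 10.6% in the other libraries and 4.04% of all bases. C within a CpG was not raised, at 3.78% and 3.73% in sperm and 3.44% to 4.48% in the other libraries, against the same 4.04%. The convention by which a lesion is placed on a base is not given in the sources used here, so a shift of the listed position by a base cannot be told apart from a property of the lesion. These values hold for promoter windows, which are richer in C and G than the genome, and were read without a test.

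**Figure D1:**
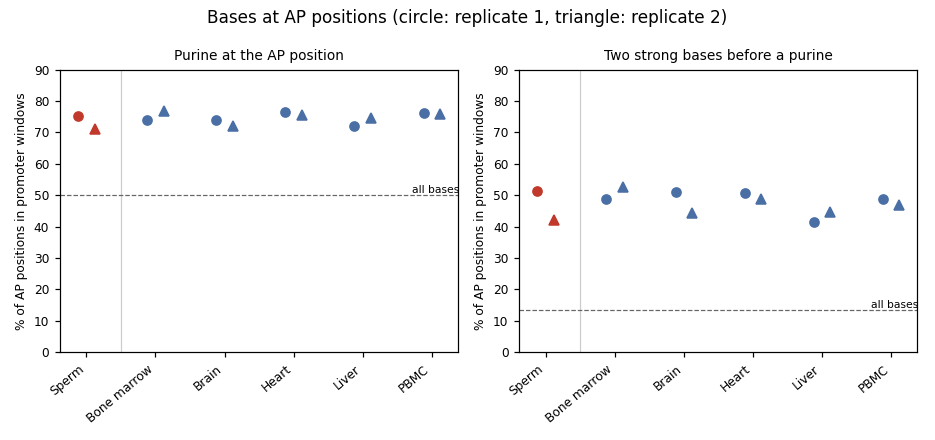
Share of AP positions in promoter windows, in percent of positions with readable bases, at which a purine was the AP position (left) and at which a purine followed 2 bases that were each C or G (right). Each point is a library, sperm in red, and the dashed line gives the share among all bases of the windows; sperm replicate 2 was the lowest library on the left at 71.1% and sperm replicate 1 was among the highest on the right at 51.5%.

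The share of AP positions within genes was the first measure of where the sperm lesions lay. Any RefSeq gene span, exons and introns together, counted as a gene. In sperm, 62.3% and 60.8% of positions fell in genes, which make up 48.3% of the autosomal length. The other 10 libraries had a minimum of 59.9%, a median of 61.8% and a maximum of 62.6%. Sperm replicate 1 was the second highest of the 12 libraries and replicate 2 the second lowest, so that the sperm libraries spanned most of the range of the others. The means differed by -0.0485 percentage points (two-sided exact permutation test over the 66 ways to choose 2 of 12 libraries, p = 0.939). The smallest p that this design allows is 0.0152.

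Lesions were denser in short than in long genes. Protein-coding genes under 10 kb held 2.53% and 2.15% of the sperm positions, which is on average 2.00 times their share of the autosomal length. For genes of 10 to 50 kb the shares were 12.8% and 11.5% (1.47 times), and for genes of 50 to 100 kb 9.18% and 8.82% (1.32 times). Genes of 100 to 500 kb held 21.6% and 21.4% (1.31 times). The 216 genes over 500 kb, among them many genes of neuronal adhesion, held 7.35% and 8.02%, or 1.05 times their share of the length. In the other tissues the same ratios were 2.02, 1.49, 1.33, 1.31 and 1.03. In each of the 5 classes both sperm libraries lay within the range of the other 10, and the exact permutation p-values ranged from 0.561 to 0.939. Under 10 kb sperm replicate 1 was high and sperm replicate 2 low, and over 500 kb the order was turned round. In both classes only liver replicate 1 lay beyond sperm replicate 2, at 2.01% under 10 kb and 8.10% over 500 kb.

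**Figure D2:**
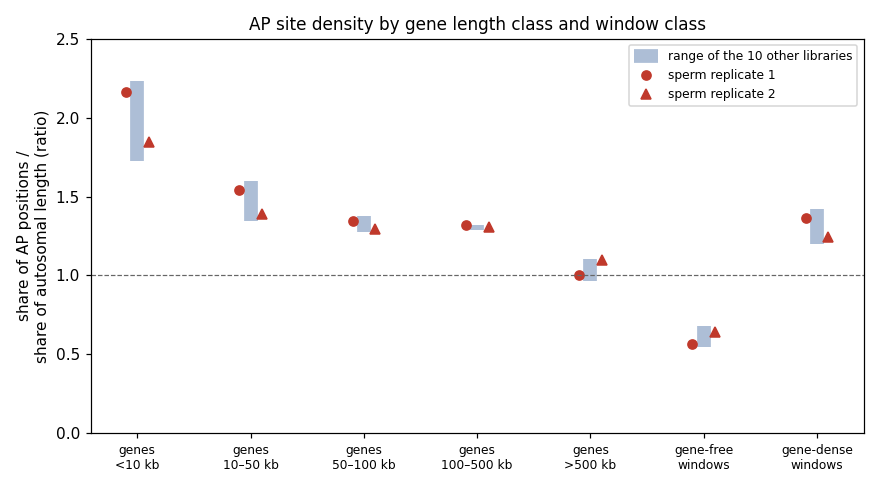
Share of autosomal AP positions divided by the share of the autosomal length (a ratio, with 1 at the dashed line) for protein-coding genes in 5 length classes and for 100 kb windows without a gene or with at least 3 protein-coding genes. Red symbols are the sperm libraries and bars the range of the 10 other libraries; the sperm ratio fell from 2.00 on average under 10 kb to 1.05 over 500 kb, and was 0.603 in gene-free windows.

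The 100 kb windows that no gene overlaps are the opposite end of the same scale. There were 3594 of them among 23983, and they held 8.28% and 9.35% of the sperm positions, against 7.94%, 8.49% and 9.91% for the lowest, median and highest of the other libraries. Windows with at least 3 protein-coding genes, 3624 in number, held 20.1% and 18.3%, against 17.7%, 19.5% and 20.97%. In both kinds of window the sperm replicates stood toward opposite ends of the other libraries. The exact permutation p-values were 0.758 and 0.742. Parts of the genome to which reads cannot be mapped count in the length of these windows, so the ratios to length are not corrected for them.

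Around the starts of 16457 protein-coding genes, the density of sperm AP positions rose sharply. Strand, and with it the start and end of a gene, was known for 79.6% of protein-coding genes. Within 500 bases of the start, the density was 1.81 and 1.63 times that 5 to 10 kb away in sperm replicates 1 and 2. The other libraries had 1.48, 1.72 and 1.81 times as their lowest, median and highest values. The highest bin of 500 bases lay just inside the gene, centred 250 bases after the start, in the mean of sperm, at 1.84 times, and in the mean of the other tissues, at 1.80 times. The windows within 1 kb of starts held 2.52% and 2.16% of the sperm positions, against 2.01% to 2.63% (exact permutation p = 1).

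At the 3′ ends the shape was different. The density climbed over several kilobases inside the gene, was highest in the bin centred 750 bases before the end, at 1.60 times the flanks in sperm and 1.55 times in the other tissues, and dropped beyond it. Windows within 1 kb of 3′ ends held 2.27% and 2.10% of the sperm positions, against 2.01% to 2.29% in the other libraries (exact permutation p = 0.985). Whether sperm and the other tissues differ in the shape of the profile was not tested.

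**Figure D3:**
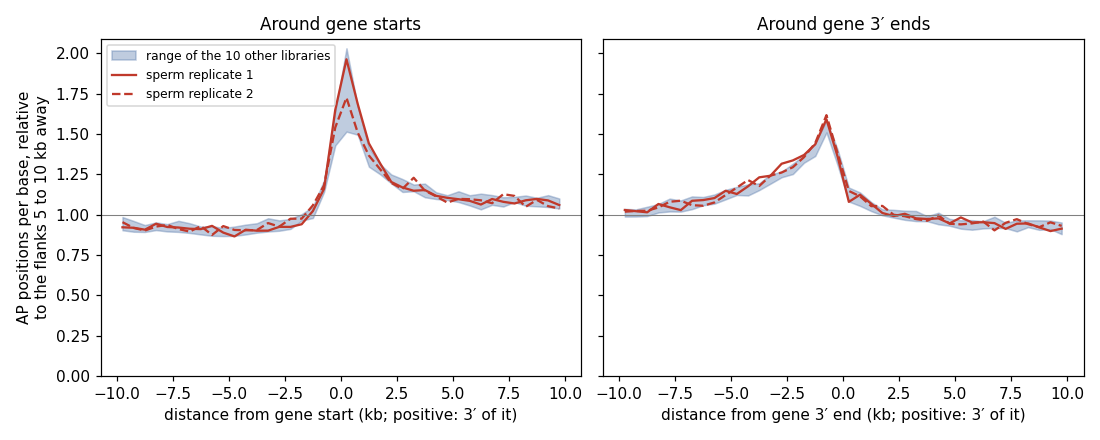
Density of AP positions in bins of 500 bases around the starts (left) and 3′ ends (right) of 16457 protein-coding genes, relative to the mean density 5 to 10 kb away, against the distance in kb with positive values 3′ of the start or end. Red lines are the sperm libraries and the band is the range of the 10 other libraries; the peaks of the sperm mean are 1.84 at 250 bases after the start and 1.60 at 750 bases before the end.

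Promoters were divided by their CpG content, because the histones that mature sperm retain are known to be enriched at CpG-rich promoters. The 9703 CpG-rich windows had a GC content of at least 55% and at least 0.6 of the CpG expected from it, and held 0.243% and 0.179% of sperm positions, against 0.161%, 0.231% and 0.270% in the other libraries. The 21693 CpG-poor windows held 0.526% and 0.499%, against 0.440%, 0.509% and 0.531%. Both were close to 2 times their share of the length, at 2.01 and 2.07 times. Sperm replicate 1 held 1.36 times the CpG-rich share of replicate 2, and both lay within the range of the others. The exact permutation p-values were 0.727 and 0.621.

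Of the 13 shares tested, that of the template strand had the smallest p. The template strand is the one that RNA polymerase reads. Among positions within protein-coding genes, 49.0% lay on it in sperm replicate 1 (95% Wilson interval 48.8% to 49.1%) and 49.2% in replicate 2 (49.0% to 49.4%). Those intervals cover counting error only. The other libraries had 49.2%, 49.6% and 50.9% as their lowest, median and highest values. Replicate 1 was the lowest of the 12 libraries, and replicate 2 was above heart replicate 1 only. The difference of the means was -0.638 percentage points, with an exact permutation p of 0.121 and an adjusted p of 1.

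Taking the 13 shares as a family, 0 passed at an adjusted p under 0.05 and 0 at an unadjusted p under 0.05. In 12 of the 13, both sperm libraries lay within the range of the other 10. For several shares the end of that range near sperm replicate 2 was set by liver replicate 1 alone. For genes, liver replicate 1 had 59.9%, sperm replicate 2 60.8% and the next lowest library, heart replicate 2, 61.0%. For gene-dense windows the values in that order were 17.7%, 18.3% and 18.7%. The gap between the sperm replicates was larger than the difference between the means of sperm and the others in 12 of the 13, the exception being the template strand. For each of the 13 shares at least 1 other tissue had a larger gap, in most of them liver alone. For genes, the liver libraries had 59.9% and 61.9%. The next widest pair among the other tissues, heart, had 61.8% and 61.0%, closer together than the sperm pair. For gene-dense windows the sperm gap was 1.84 percentage points and the largest among the other tissues, that of liver, 2.31. Sperm replicate 2 also had the higher share on chromosome X of the pair, and its part in the gap was not tested. The 10 other libraries are 5 pairs from 5 tissues, so they are not 10 independent samples of a single population, and the test measures only whether sperm stood apart from them.

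**Figure D4:**
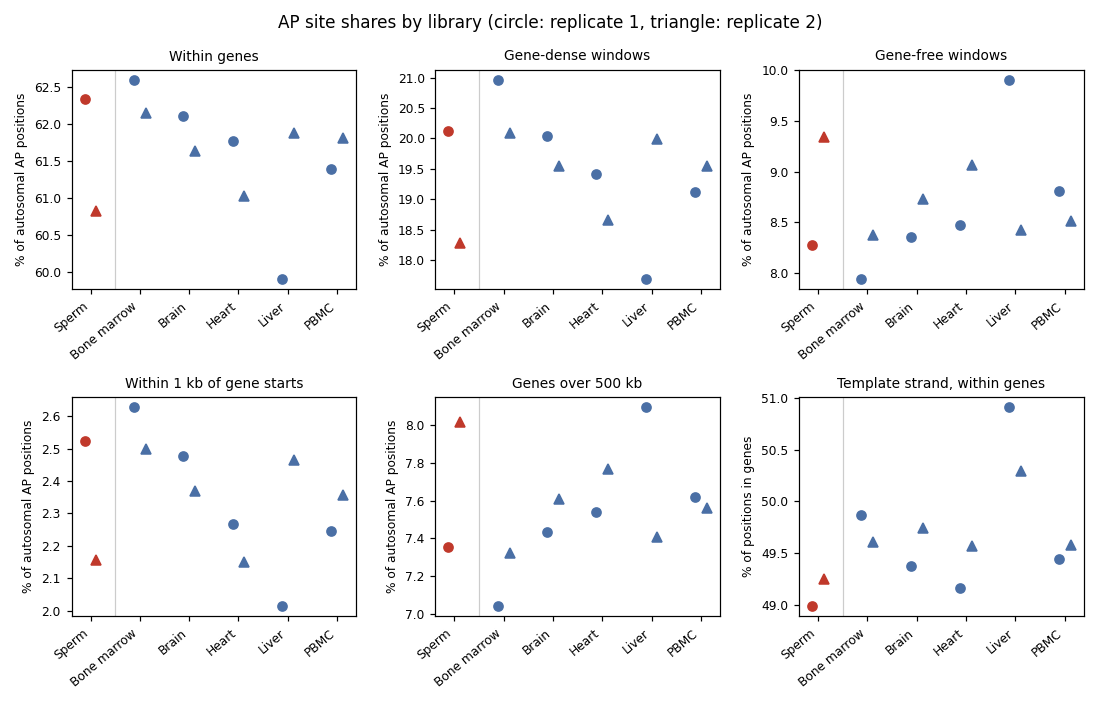
Share of autosomal AP positions, in percent, in 5 kinds of region, and share of the positions in genes that lay on the template strand (lower right), for each of the 12 libraries. Circles are replicate 1 and triangles replicate 2, and the axes do not start at 0; the sperm symbols, in red, lie far apart within the spread of the others in 5 panels and close together at the low end, at 49.0% and 49.2%, in the template strand panel.

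The same DNA samples were also profiled for single-strand breaks (SSBs), and there the sperm libraries stood apart. For SSBs, 60.2% and 60.0% of sperm positions lay in genes, against 61.2% to 63.7% in the other tissues (exact permutation p = 0.0303, adjusted p = 0.0492), and 8 of the 13 shares passed. The difference between the assays was then tested, after those values had been seen, on the SSB share minus the AP share of each sample. It passed for 0 of the 13 shares, with a smallest adjusted p of 0.0657. The smallest exact permutation p, 0.0152, is also the smallest that this design allows. It was reached for genes, for genes of 50 to 100 kb and for genes over 500 kb. With so few libraries the test had little room to pass after adjustment, so no conclusion is drawn on whether the assays differ.

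Single genes were compared next, with edgeR's quasi-likelihood test on the positions in each of 39732 autosomal genes that had a position in at least 20% of the libraries. Sperm was set against the mean of the other 5 tissues. At an adjusted p under 0.05, 0 genes were called (0.0%). At an unadjusted p under 0.05, 980 genes had more positions in sperm (2.47%) and 516 fewer (1.3%). These numbers depended on the model and the filter. With 2 groups and no tissue term they were 653 and 839. With genes kept only if nonzero in at least 80% of the libraries, they were 657 and 462. Both sperm libraries were above the other 10 in 474 genes (1.19%) and below them in 356 (0.896%). limma on log2(LPKM + 1), where LPKM is PPM per kilobase of gene, called 13 genes, and DESeq2 called 0. Of the 13, 12 had at most 7 positions over all 12 libraries, and Olfr1269, an olfactory receptor gene, had 8. On simulated data with these libraries' depths, edgeR recovered 100% of genes raised 2-fold in sperm and 78.8% of those lowered 2-fold, and 50% and 24.2% of those changed 1.5-fold, among genes with a mean of at least 20 positions. Each of these values rests on 33 or 34 genes. The simulated data held no differences among the other tissues and a spread set by the number of positions alone, so recovery in the real data can differ. Recovery in genes with fewer positions was not simulated. The median protein-coding gene had 10 positions in sperm replicate 1 and 6 in replicate 2.

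The genes named here are the 8 of smallest p in each direction among 4653 protein-coding genes with a mean of at least 20 positions per library. None passed, and each has an adjusted p of 0.9999 with edgeR. Their values are therefore a description of the extremes, in which both directions are seen by construction. Over the 4653 genes the median log2 fold change was 0.00 and the change was under 1.29-fold for 95% of them. At an unadjusted p under 0.05, 91 had more positions in sperm (1.96%) and 83 fewer (1.78%).

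Of the 8 genes with more positions in sperm, Sfi1, which encodes a centrin-binding protein of the centrosome, had by far the most. It lies on chromosome 11 (3131850 to 3203347) and held 1415 and 1404 PPM in the sperm replicates. The other libraries had 1037, 1231 and 1317 as the lowest, median and highest values, so sperm was above each of them. The log2 fold change was 0.24 with an SE of 0.07. Its LPKM was 19.7 in sperm, the highest of the 4653 genes, whose median was 0.614. Where reads of near-identical copies of a sequence were placed was not tested.

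Ptgfrn, a membrane protein of the immunoglobulin family on chromosome 3 (101040230 to 101110745), held 82.4 and 73.8 PPM in sperm against 46.4, 56.2 and 64.7. Rspo2, a secreted enhancer of Wnt signalling, held 68.6 and 68.9 against 39.7, 48.5 and 62.9. In both, the sperm libraries lay above the other 10. For the other 5 genes the groups overlapped. Mrps9, a protein of the mitochondrial ribosome, held 48.6 and 52.5 against 19.7 to 50.1, with a log2 fold change of 0.67 (SE 0.21). Klhl1, an actin-binding kelch protein of neurons, held 60.2 and 91.8 against 35.3 to 63.2, with a log2 fold change of 0.53 that was 0.23 without replicate 2. Rgs9, a regulator of G protein signalling in photoreceptors and striatum, held 63.4 and 70.5 against 39.7 to 63.5. Pitpnm2, a phosphatidylinositol transfer protein, rested on replicate 1 alone, with 179.5 PPM against 93.5 in replicate 2 and 98.5 to 130.5 in the other libraries, and without replicate 1 its log2 fold change turned from 0.37 to -0.23. Ttc39b held 90.8 and 60.7 against 34.4 to 77.2, and its log2 fold change went from 0.45 to 0.10 without replicate 1.

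Pstpip2, an actin-associated protein of macrophages, led the 8 genes with fewer positions in sperm. It held 23.2 and 11.5 PPM against 26.8, 34.9 and 54.1 in the other libraries, with a log2 fold change of -0.999 (SE 0.27). That value rests on 22 and 7 positions, and was -1.66 without replicate 1 and -0.69 without replicate 2. Nol4l held 88.7 and 77.1 against 97.0, 117.7 and 137.0. Atp8b5, a phospholipid flippase known from sperm, held 31.7 and 32.8 against 35.7, 49.6 and 58.8. Necab1, a neuronal calcium-binding protein, and B4galt5, a galactosyltransferase of glycolipid synthesis, were also lower in both sperm libraries than in the other 10. Necab1 held 50.7 and 36.1 against a lowest value of 55.9, and B4galt5 27.5 and 29.5 against 31.8. Babam2, a subunit of the BRCA1-A complex, overlapped the others at 174.2 and 142.7 against 170.1 to 238.1. Arhgef17 and Mphosph9, an M-phase phosphoprotein, overlapped them as well. Arhgef17 held 48.6 and 32.8 against 44.0 to 84.7, and Mphosph9 34.8 and 18.04 against 28.6 to 66.7. Their log2 fold changes were -0.59 and -0.67, and -0.93 and -1.29 without replicate 1. That of Necab1 went from -0.54 to -0.83 without it. Over all 4653 genes, both sperm libraries were above the other 10 in 51 genes (1.1%) and below them in 62 (1.33%).

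**Figure D5:**
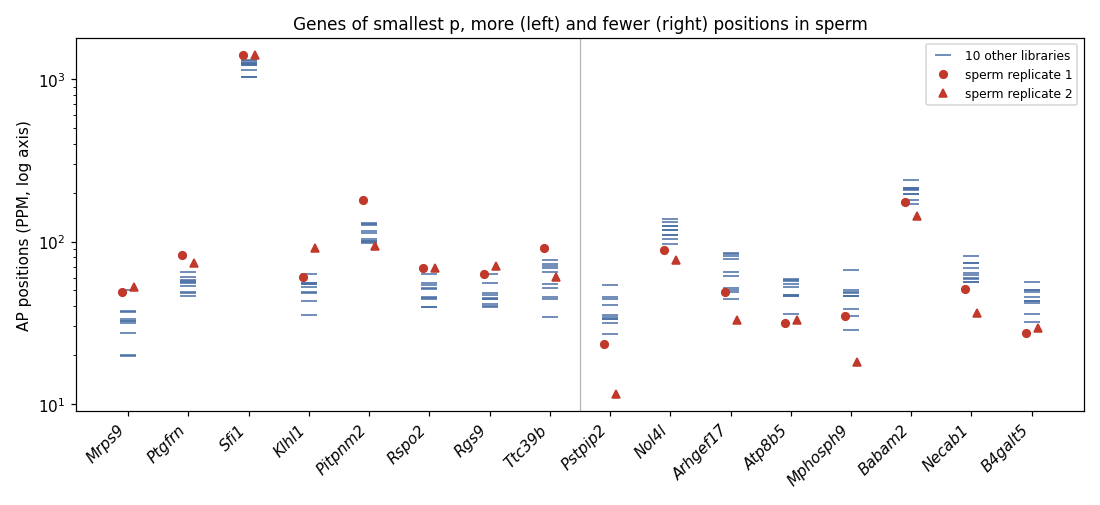
AP positions in PPM (log axis) for the 16 protein-coding genes of smallest p, the 8 with more positions in sperm on the left and the 8 with fewer on the right. Red symbols are the sperm libraries and blue bars the 10 other libraries; none of the 16 genes passed at an adjusted p under 0.05, and the sperm symbols overlap the bars in 8 of them.

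The genes of sperm chromatin and sperm function were then looked at as lists, chosen with earlier results of these data known. Prm1, Prm2, Tnp1 and Tnp2 are so short, 2768 bases in all, that they held 6 and 2 positions in the sperm libraries. That is 6.34 and 3.28 PPM, against 0, 1.201 and 5.82 in the other libraries, of which 4 had no position. Prm1 had the smallest p, 0.0428 with edgeR before adjustment, on 3 positions and 1 position in the sperm replicates and 4 in the 10 others together. Values on so few positions carry a large counting error. The list of 8 sperm chromatin genes had 11.6 and 8.20 PPM in sperm against 2.21 to 10.5, with a median of 5 positions per gene over all 12 libraries. Of the 8, Tnp1 and Tnp2 passed the filter on low values only through their sperm positions, and nothing is read from the median log2 fold change of the list, 1.09 beside 0.05 over all genes tested. The 44 genes of spermatogenesis and sperm function had a median of 0.05, with 2 genes higher and 1 lower at an unadjusted p under 0.05. Their 2 genes with most positions, Spag16, of the sperm tail axoneme, and Dnah8, a dynein heavy chain, held 240.8 and 250.9, and 118.3 and 150.9 PPM. The other libraries ranged from 198.3 to 296.9 and from 110.2 to 144.4 for them, so that of the 4 sperm values only that of Dnah8 in replicate 2 lay outside.

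For the other lists, 0 genes passed either, and the shares of members at an unadjusted p under 0.05 can be read against 3.77% for all genes. The 33 long neuronal and fragile-site genes had 0 such members and a median log2 fold change of 0.03. Together they held 16379 and 18554 PPM in sperm against 15590 to 19450. Among 127 developmental transcription factors, 2 were higher and 1 lower, and among 80 cytosolic ribosomal protein genes 1 and 1. For 1035 olfactory receptor genes the numbers were 27 and 2 (2.8%), with a median of 8 positions per gene over all libraries and a median log2 fold change of 0.29. Of them, 66 passed the filter only through sperm. As a whole these receptors held 1196 and 1259 PPM against 1134 to 1308. The 280 vomeronasal receptor genes, 15 of which likewise passed only through sperm, gave 6 and 4, and 380 genes with Zfp names, of which many but not all are KRAB zinc fingers, gave 12 and 2 (3.68%). Genes of hepatocytes, cardiac muscle and blood cells, which are markers of the other tissues, gave 0 and 1 of 23, 1 and 0 of 22, and 1 and 0 of 24.

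Among the 2 members with most positions in each list, sperm departed little from the others where counts were high. Where counts were low, the SEs were large. Sox5 and Sox6, transcription factors of cartilage and neurons, had log2 fold changes of 0.06 (SE 0.08) and -0.03 (SE 0.10). Cacna1c and Ryr2, the calcium channels of heart muscle, had 0.03 (SE 0.09) and 0.05 (SE 0.10), and Runx1 and Pax5, regulators of blood cells, 0.02 (SE 0.11) and 0.09 (SE 0.12). Cps1 and Ass1, enzymes of the urea cycle, had -0.06 (SE 0.19) and -0.08 (SE 0.20), and Zfp536 and Zfp423 0.07 (SE 0.09) and -0.12 (SE 0.10). Those of the receptor lists, Olfr1393 and Olfr91 and Vmn2r1 and Vmn2r2, and of the ribosomal list, Rpl22 and Rps15a, had from -0.37 to 0.20 with SEs from 0.25 to 0.46. Hils1 and H1f7, histone variants of spermatids, had -0.06 (SE 2.90) and 1.89 (SE 1.08), on about 1 position per library.

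The 5 longest autosomal protein-coding genes held many positions. Ptprd, a receptor tyrosine phosphatase of synapses (2270506 bases), held 559.7 and 737.9 PPM in sperm against 542.5, 659.7 and 771.2 in the other libraries. Cntnap2, a neurexin-like protein, held 566.0 and 675.6 against 565.2, 636.3 and 754.5. Lsamp, Lrp1b and Macrod2 followed the same order, with 797.3 and 905.2, 426.6 and 514.9, and 738.2 and 847.8 in sperm replicates 1 and 2. In each of the 5, replicate 1 was lower than replicate 2 and both were within the range of the other libraries, and the log2 fold changes lay between -0.03 and 0.08 with SEs of 0.08 to 0.09. Csmd1, a complement-regulating membrane protein and the other leading member of the long gene list, held 818.4 and 846.2 against 746.7 to 911.6. For SSBs of the same samples, the log2 fold changes of the 5 longest genes were 0.41, 0.25, 0.53, 0.49 and 0.49. Their adjusted p-values with edgeR, in the same order, were 0.0186, 0.649, 6.07e-07, 0.00664 and 4.73e-05, so all but Cntnap2 passed for SSBs. For AP sites the adjusted p of each was 0.9999. The difference between the assays was not tested gene by gene.

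Regions were compared in 23972 windows of 100 kb, by the same test. At an adjusted p under 0.05, 0 windows were called (0.0%), and 0 with DESeq2 and 0 with limma. At an unadjusted p under 0.05, 520 windows had more positions in sperm (2.17%) and 450 fewer (1.88%). Both sperm libraries were above the other 10 in 258 windows (1.08%) and below them in 259 (1.08%). In 1 Mb windows, which hold more positions, the change was under 1.11-fold for 95% of 2413 windows and 0 were called, with 43 at an unadjusted p under 0.05.

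The windows of smallest p are described here, all with adjusted p-values of 0.740 or 0.999 with edgeR. On chromosome 16 (85900001 to 86000000), the window of Adamts5, a protease of cartilage matrix, held 40.1 and 67.2 PPM in sperm against 16.2, 31.3 and 33.1 in the other libraries, and its log2 fold change of 0.84 was 0.51 without sperm replicate 2. A window without a gene on chromosome 10 (113000001 to 113100000) held 33.8 and 47.6 against 12.3, 20.9 and 31.4. The window of Ptgfrn and Cd101 on chromosome 3 and that of the zinc finger genes Zfp442 and Zfp345 on chromosome 2 were also above all others, with log2 fold changes of 0.54 (SE 0.16) and 1.09 (SE 0.31), the latter 0.66 without sperm replicate 1. In the fifth, on chromosome 3 (73100001 to 73200000), which holds Gm20754, the groups overlapped.

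In the 5 windows of smallest p with fewer positions in sperm, both sperm libraries were below the other 10. They held Galr1, a galanin receptor, with part of Mbp, the myelin basic protein, then Vmn2r61, a vomeronasal receptor, Insr, the insulin receptor, and Sox9, a regulator of cartilage and testis, and the fifth, on chromosome 16 (27500001 to 27600000), held no gene. The window of Galr1 and Mbp held 45.4 and 32.8 PPM against 50.3, 62.2 and 108.2. The window of Vmn2r61 on chromosome 7 (42200001 to 42300000) had a log2 fold change of -2.48 (SE 0.64), on 2.11 and 1.64 PPM against 7.35, 11.3 and 18.9. For the windows of Insr and Sox9 the log2 fold changes were -0.89 (SE 0.25) and -0.68 (SE 0.20).

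The likeness of the profiles over the genome was described between all pairs of libraries. At equal depth, the Spearman correlation over 23979 windows of 100 kb was 0.829 between the sperm libraries. Sperm replicate 1 had 0.798 to 0.859 with the other libraries, with a median of 0.855, and sperm replicate 2 had 0.788 to 0.830. Only with liver replicate 1, at 0.798, did sperm replicate 1 have a lower value than with sperm replicate 2. Its next lowest, with heart replicate 2, was 0.839. Libraries of the same other tissue had 0.796 to 0.857 and those of different tissues 0.790 to 0.858. These correlations share libraries and are given as a description. On each of the 19 autosomes the sperm shares overlapped those of the other 10 libraries (0 above, 0.0%, and 0 below, 0.0%), and the ratio of the means lay between 0.990 on chromosome 7 and 1.02 on chromosome 19.

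Single nucleotides seldom recurred, and the share that random placement would give was not computed. With 452686 positions drawn from each library, 0.186% of positions were the same, on the same strand, in the 2 sperm libraries. Sperm shared 0.143% to 0.209% with the libraries of other tissues, a range that held the value of the sperm pair, and different other tissues shared 0.141% to 0.219%. With all positions used, 2.86% and 2.41% of the sperm positions were also found in another tissue.

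AP positions were concentrated at a few places in every library. Of all 10 kb windows, 24 held more than 10 times the median of 34 positions over the 12 libraries, and they took 0.293% and 0.265% of the sperm positions, against 0.227%, 0.258% and 0.279% in the others. The highest, on chromosome 17 (39840001 to 39850000), is the window of the ribosomal RNA gene Rn18s-rs5, with 407.6 and 252.5 PPM in sperm against 182.3 to 492.0. The next 8 lay side by side on chromosome 11 between 3120001 and 3200000, over Sfi1 and Pisd-ps1, and others held Sp110, A530032D15Rik, Mroh2a or Duxf3. Both sperm libraries were above the other 10 in 3 of the 24 windows, 2 of them in Sfi1 and 1 at Pisd-ps2 on chromosome 17 (3080001 to 3090000), with 72.9 and 73.8 PPM against 48.5 to 70.3. Among all 235213 windows of 10 kb with a position, this was the case in 2907 (1.24%), and both were below in 2339 (0.994%). Of the 24, they were below in 1, without a gene, on chromosome 15 (75080001 to 75090000), with 73.9 and 75.4 against 79.6 to 107.3. How well reads can be placed in these windows was not tested.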

How the data were processed

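For each library the authors deposited a list of lesion positions on their strands, each with an unnormalized count, made with in-house code and not pooled. The aligner and filters for these lists are not given in the sources used here; the submitters' processing notes name mm10 and GRCm38. Each position was counted once over whole gene spans of RefSeq genes (GRCm38.p6, 47042 on autosomes); exons were not used here, and starts, ends and strands only for the 79.6% of protein-coding genes with a known strand, none of them on 1 autosome. LPKM used autosomal positions. Groups came from the labels. Genes and windows were tested with edgeR 4.0.16 (quasi-likelihood, 6 tissues, TMM, autosomal totals as library sizes, nonzero in at least 20% of libraries, Benjamini-Hochberg, threshold 0.05), with limma 3.58.1 and DESeq2 1.42.0 as alternatives in R 4.3.3, and tested on simulated data. Shares were tested with two-sided exact permutation tests, adjusted over 13. A position in several protein-coding genes went to the longest. Shares and figures were made in Python 3.11.15 with scipy 1.17.1, numpy 2.4.6, matplotlib 3.10.9 and pandas 2.3.3. The members, lists and rules were chosen with earlier results of these data known. The genes named were the 8 of smallest p each way among protein-coding genes with a mean of at least 20 positions. The 2 of each list with most positions, the 5 longest genes and the 5 windows of smallest p each way followed. The 3 promoters with most sperm positions were taken outside chromosome 18, with a single window kept per gene. The protamine and transition protein genes were named too. The libraries are from 2 mice, so p-values measure the spread between few samples.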

Additional observations from a re-analysis of the deposited data

Results flagged for a closer look

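Among the 10 libraries that sperm was compared with, liver replicate 1 lay far from the other 9 for 2 of the 13 shares. It held 21.1% of positions in genes of 100 to 500 kb and 2.01% within 1 kb of gene 3′ ends, the lowest values of the 12 libraries in both. Gaps were flagged at a size found by chance in at most about 1 in 20 groups of independent values. The 10 libraries come in pairs from the same tissue, and 13 shares of them were looked at. In each of the 13, liver replicate 1 was the lowest or the highest of the 12 libraries. Liver replicate 1 also had the largest share of positions with a count above 1, 0.929%, against 0.340% in the lowest of the 10; whether this bears on the shares was not tested.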

How the results depend on the processing

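The replicate block for the shares and the test of the assay difference were chosen after seeing the data; the other alternatives were set with the design. Of the 13 shares, 0 passed under any alternative run. Except for the template strand, the sign of the difference between sperm and the others turned with the libraries used. Leaving out 1 library at a time gave, in percentage points, -0.805 to 0.708 for genes, -0.205 to 0.167, -0.793 to 0.436, -0.235 to 0.124, -0.0396 to 0.143 and -0.188 to 0.480 for the length classes from the shortest to the longest, -0.192 to 0.176 for starts, -0.0851 to 0.0820 for 3′ ends, -0.0418 to 0.0223 for CpG-rich and -0.00361 to 0.0239 for CpG-poor promoters, -0.380 to 0.685 for gene-free and -1.23 to 0.613 for gene-dense windows. The template strand difference kept its sign, at -0.769 to -0.507. For each of the 13 shares both ends of the range are the values without 1 or the other sperm library. The log2 fold change of Pitpnm2 ran from -0.23 without sperm replicate 1 to 0.68 without sperm replicate 2, and the other 15 genes and 10 windows of smallest p kept their direction in every alternative. Leaving out 1 sperm library moved 7 of the 16 genes and 2 of the 10 windows by over 1.5 times. Without bone marrow the sign turned for genes (0.138), genes under 10 kb (0.0260) and of 50 to 100 kb (0.00500), starts (0.0465) and 3′ ends (0.0214), and without brain for genes (0.0126), starts (0.0114) and 3′ ends (0.00275). For starts it also turned at equal depth (0.00135) and within 500 bases (0.00462). Calls of genes were 0 in each alternative but limma (13), whose cause was not tested. Calls of windows were 0 to 1 when 1 library was left out; without sperm replicate 2, a window on chromosome 16 (54600001 to 54700000) was called, with 1.06 PPM in sperm replicate 1, 23.0 in replicate 2 and 9.01 to 25.1 in the others. The labels do not pair the numbers across tissues. Correlations of the deviations of same-numbered libraries over 1 Mb windows ran from -0.628 to 0.459, over 0.1 in 7 and under -0.1 in 8 of 15 tissue pairs. They were 0.161 to 0.459 in the 6 pairs among bone marrow, brain, heart and sperm, a set not fixed in the design. Liver and PBMC had 0.275 with each other and negative values with each of these 4 tissues. Whether the numbers name the same animal cannot be read from such a set. With the replicate number as a block, 0 genes and 0 windows were called and 0 shares passed. Depth limits which changes could be called. In simulation without differences among the other tissues, most 2-fold changes were called at a mean of 20 positions or more per library.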
